A study of Drosophila melanogaster with 4 samples.

Results

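The genes described are yki and 9 core genes of the Hippo pathway, chosen by name: hpo, sav, mats, wts, kibra, ex, Mer, sd and jub. Of these 10 genes, 9 had a probe set that the platform annotation gives that gene's symbol alone, out of 11982 genes measured in this way, and sd was not analysed here. kibra had 2 such probe sets and every other measured gene had 1, which makes 10 probe sets in all. RNA came from eye discs of Drosophila melanogaster pupae, dissected about 40 h after pupariation from animals kept at 29 °C. Control discs carried GMR-Gal4 alone, a driver whose promoter directs the yeast activator Gal4 to the developing eye. The other discs carried GMR-Gal4 together with UAS-Yki, a Gal4-dependent transgene for Yorkie (Yki), so both groups share the driver. Each group had 2 Affymetrix Drosophila Genome 2 arrays, labelled as biological replicates, and the number of animals behind each is not stated. The comparison asks how the RNA of the pathway's own genes stands when its effector is overexpressed.

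Hippo signalling restrains growth through a kinase cascade. The kinase Hippo (hpo), with the scaffold Salvador (sav), phosphorylates Warts (wts) and its adaptor Mob as tumor suppressor (mats), and Warts phosphorylates Yorkie, which keeps it out of the nucleus. Yorkie that reaches the nucleus binds DNA through partners such as Scalloped (sd) and raises growth and survival genes. In imaginal discs its targets also include the upstream activators ex and kibra, which act back on the cascade. In the fly eye, loss of the cascade or excess Yorkie gives extra cells between the ommatidia.

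The values are the deposited intensities, linear and scaled by the authors, and a difference is Yki minus control on the log2(intensity + 16) scale. Median intensities over 18769 probe sets ran from 79.4 to 101 across the arrays, and the replicate arrays of a group had correlations of 0.973 and 0.975 over these probe sets on the log2 scale. The brightness of a probe set depends on its probes, so the order of brightness of probe sets is not an order of RNA levels. The discs expressed eye genes in both groups. Of 14 eye markers, 4 were higher and 4 lower without overlap (the lower ones sv, B-H2, eya and B-H1), and their median difference was 0.15. Of the brightest markers, chaoptin (chp), a photoreceptor adhesion gene, measured 3768 and 4365 in control discs and 6679 and 7749 in Yki discs, and the lens gene Cpr72Ec measured 8413 and 9124 against 17742 and 21015. Markers of other tissues were present too. The summed intensity of 10 muscle markers, led by Act87E and Mlc1, was 9658 and 16394 in control discs against 26921 and 43896 in Yki discs, and 9 of the 10 were higher without overlap. That of 8 neuroblast and brain markers, led by scro and dpn, was 2761 and 2947 against 2612 and 1048, with 6 of 8 lower without overlap. Without scro, whose groups overlapped, it was 1627 and 1588 against 643 and 459.9, and dpn itself measured 533 and 574 against 127 and 111. The sum of the eye markers was 25288 and 30494 against 35622 and 43805, but without Cpr72Ec it overlapped, at 16875 and 21370 against 17880 and 22790. That of 8 glial markers, led by moody and Gli, was 13402 and 15756 against 18042 and 22268, with 3 higher and 1 lower without overlap, and without moody it overlapped too, at 11125 and 13057 against 11551 and 14618. The sums of 12 haemocyte markers, led by Col4a1 and Pxn, and of 6 tracheal markers, led by serp and pio, overlapped between the groups. Single haemocyte markers went both ways, with 5 of the 12 higher and 4 lower without overlap, and 1 tracheal marker was higher without overlap. The sum of 7 fat body markers, led by Lsp2 and Fbp1, was 44488 and 31967 against 31786 and 29899, so the groups nearly touched. Of these markers 1 was higher and 2 lower without overlap. Separation without overlap was seen for 47.7% of all named genes. The genes left out of these sums were chosen after their values were seen. No marker in these lists was at 0, but some were near the bottom of the scale, such as l(1)sc (2.89) and Yp2 (6.73) on Yki replicate 1. Without a detection call, such values do not show expression. The part of these tissues in the results below was not tested, and in whole discs fewer cells of a type and less RNA per cell cannot be told apart.

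yki was the only one of the 9 measured genes to pass the test. Its probe set read 1285 and 1261 in control discs and 26417 and 26183 in Yki discs. The arrays of a group nearly coincided and the groups lay far apart: each Yki array was 20.4 to 21.0 times as bright as each control array. The log2 difference was 4.35 (95% interval 3.79 to 4.91; limma adjusted p 0.0393 over all probe sets). Over all named genes, 0.025% passed at the same threshold. Of the named genes 0.192% had a larger difference in either direction than yki. On each Yki array a single probe set was brighter than that of yki, whereas 2519 and 2660 were brighter on the control arrays, and so close to the upper end of the intensities the fold may be too small. The array value does not separate RNA of the transgene from RNA of the gene itself. The call was lost whenever 1 array was left out (adjusted p 0.138 to 0.372) and with a pseudocount of 1 (0.232), while the difference stayed at 4.30 to 4.37. The smallest two-sided p that exact permutation of 4 arrays allows here is 0.333, which was the value for yki and for the 5 other genes whose groups did not overlap.

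**Figure D1:**
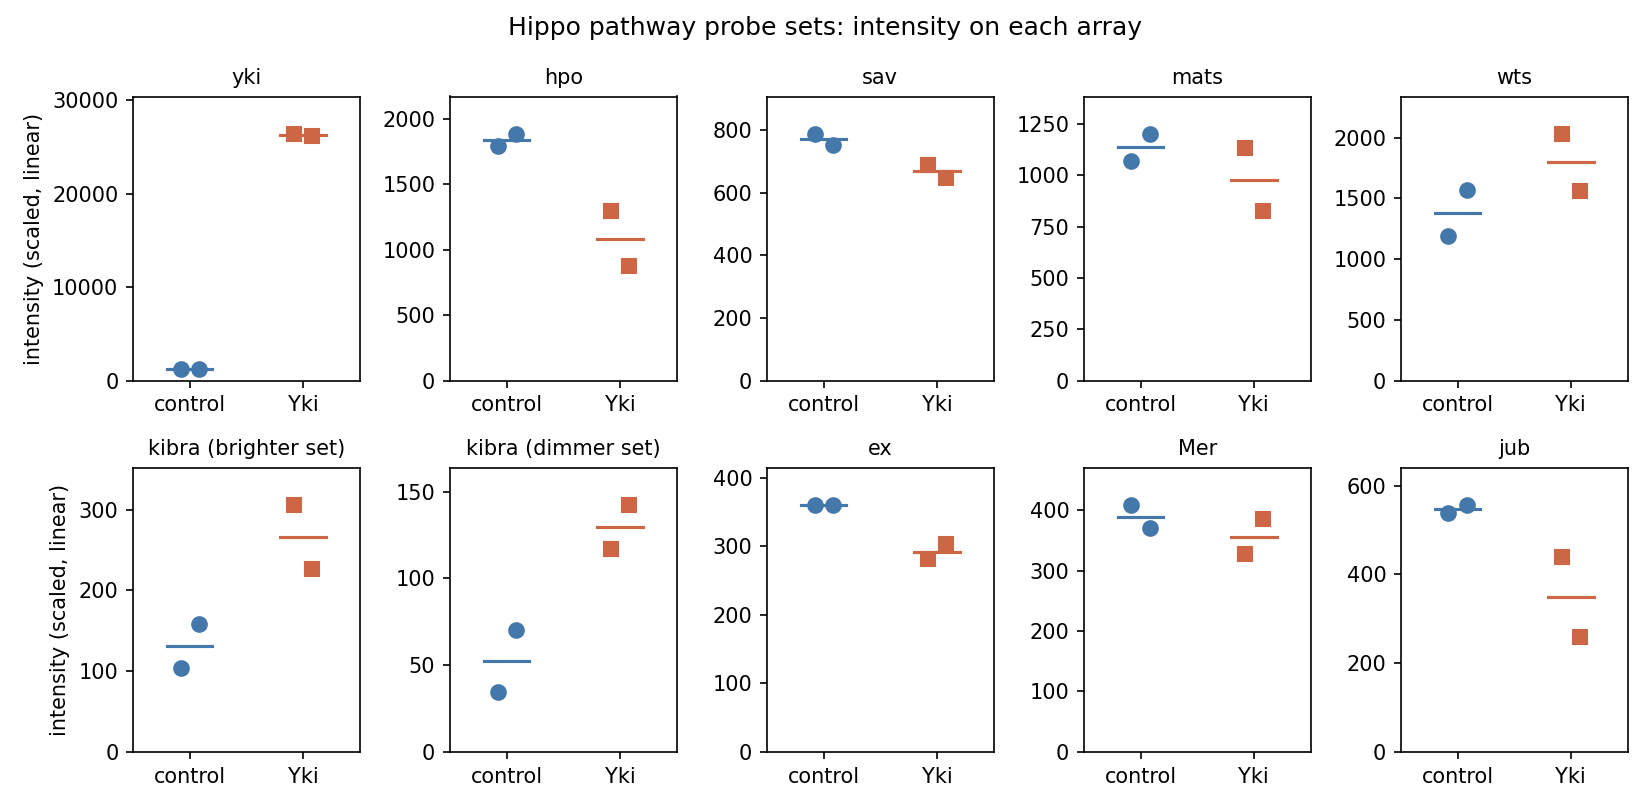
Intensity (scaled, linear, each panel from 0) of the 10 probe sets on each array, with circles for the 2 control arrays, squares for the 2 Yki arrays and a line at each group's mean. yki stands at 26183 to 26417 on the Yki arrays against 1261 to 1285, both kibra probe sets lie higher in Yki discs, and hpo, sav, ex and jub lie lower without overlap.

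None of the 4 genes of the core cascade passed the test, and 3 of their differences were below 0 and 1 above. The 95% intervals given here are not adjusted over genes. hpo, the upstream kinase, had the largest difference of the 4. It measured 1791 and 1886 in control discs and 1294 and 876 in Yki discs. Both Yki arrays were below both control arrays, by 1.38-fold to 2.15-fold from pair to pair, but the Yki arrays differed by 1.48-fold among themselves and the control arrays by only 1.05-fold. The log2 difference was -0.78 (95% interval -1.50 to -0.06), with an unadjusted limma p of 0.0391 and an adjusted p of 0.355. It was -0.50 without Yki replicate 2 and -1.06 without Yki replicate 1.

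sav, whose WW-domain scaffold protein links Hippo to Warts, measured 789 and 752 in control discs and 689 and 647 in Yki discs. The groups did not overlap, and the narrow spread in each left a difference of -0.20 (95% interval -0.77 to 0.37, adjusted p 0.764). mats, the Mob-family adaptor and activator of Warts, measured 1068 and 1204 against 1131 and 828. Its groups overlapped, since 1 Yki array lay between the control arrays and the other below both (difference -0.22, 95% interval -0.90 to 0.45, adjusted p 0.783). Without Yki replicate 2 the difference of mats was -0.0033.

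wts, the kinase that acts on Yorkie directly, was the one core gene with a difference above 0. It measured 1187 and 1566 in control discs and 2034 and 1562 in Yki discs. The dimmer Yki array lay just below the brighter control array, so the groups overlapped by a narrow margin (difference 0.38, 95% interval -0.33 to 1.10, adjusted p 0.624). With 1 array left out it ranged from 0.18, without control replicate 1, to 0.58, without control replicate 2. The intervals of sav, mats and wts all include 0.

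Among the upstream activators, kibra was higher without overlap in Yki discs, ex was lower without overlap and Mer overlapped. Kibra is a WW- and C2-domain protein that works with Merlin and Expanded at the cell cortex to activate the cascade, and its gene is a known target of Yorkie. Its brighter probe set measured 104 and 159 in control discs and 306 and 226 in Yki discs. Both Yki arrays were above both control arrays, by 1.42-fold to 2.95-fold from pair to pair. The group means were 131 ± 39.0 and 266 ± 56.6 (SD, n = 2 each), which is 2.02-fold. The log2 difference was 0.95 (95% interval 0.16 to 1.73), with an unadjusted limma p of 0.0271 and an adjusted p of 0.32. The dimmer probe set measured 34.7 and 70.4 against 117 and 142, a difference of 1.13 (95% interval 0.27 to 2.00, adjusted p 0.29). Both probe sets thus lay higher in Yki discs without overlap, though they measure the same RNA on the same arrays and are not separate replicates. With 1 array left out in turn the differences ranged from 0.67 to 1.22 for the brighter set and from 0.75 to 1.52 for the dimmer one. Neither passed the test.

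ex encodes the FERM-domain protein Expanded, and the gene is widely used as a reporter of Yorkie activity in discs. It measured 359.7 and 360.5 in control discs and 282 and 303 in Yki discs. The control arrays were nearly identical, and both Yki arrays were lower, by 1.19-fold to 1.28-fold. The log2 difference was -0.29 (95% interval -0.85 to 0.28, adjusted p 0.644), and it stayed between -0.34 and -0.24 with any 1 array left out. The interval, unadjusted and for whole discs, ended at 0.28 on the log2 scale. Whether ex responds in the cells that express the driver was not tested. Mer, the gene of the FERM-domain protein Merlin, measured 409 and 369.6 in control discs and 327 and 385 in Yki discs. These groups overlapped (difference -0.12, 95% interval -0.73 to 0.48, adjusted p 0.876), and the difference was between -0.24 and -0.01 with 1 array left out. Of the 3 activators, only kibra had an interval that left out 0.

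jub, the gene of the LIM-domain protein Ajuba, acts on the other side of the pathway, since Ajuba holds Warts at cell junctions and inhibits it. It measured 537 and 557 in control discs and 439.7 and 259 in Yki discs. Both Yki arrays were lower than both control arrays, and they were 1.70-fold apart from each other. The log2 difference was -0.67 (95% interval -1.49 to 0.15, adjusted p 0.456). It was -0.30 without Yki replicate 2 and -1.04 without Yki replicate 1. On Yki replicate 2 hpo, mats and jub were all at their lowest of the 4 arrays, as was sav. The others differed, with ex and Mer lowest on Yki replicate 1, wts and kibra on control replicate 1 and yki on control replicate 2. How many of all named genes were lowest on each array was not counted.

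**Figure D2:**
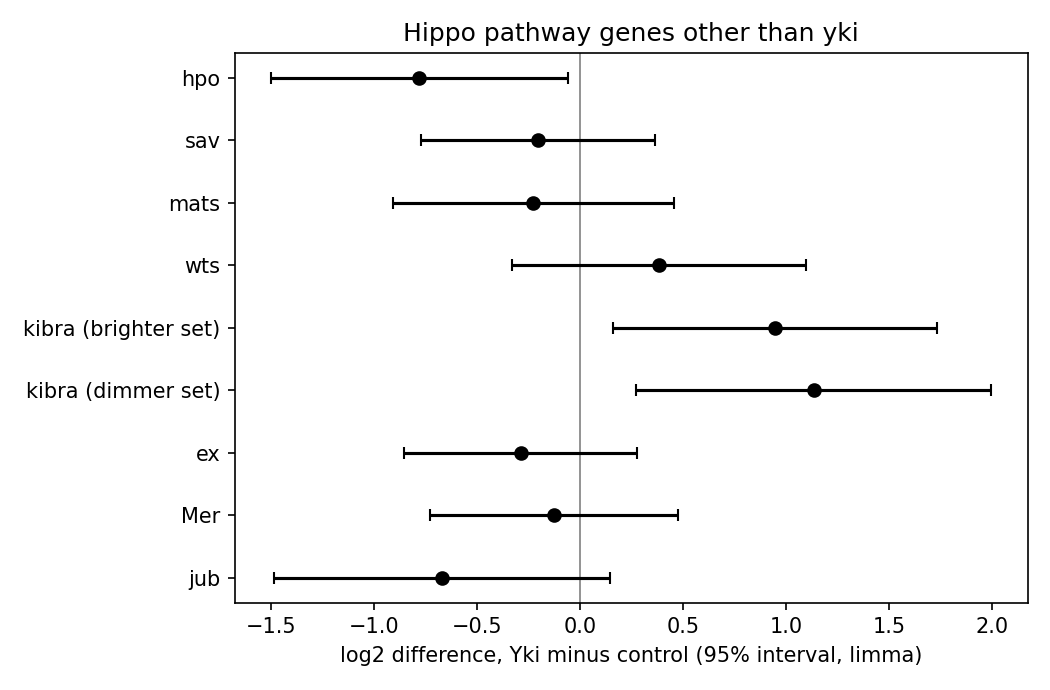
Difference between Yki and control discs on the log2(intensity + 16) scale for each probe set other than that of yki, with limma's 95% interval as the bar. Both kibra probe sets (0.95 and 1.13) have intervals above 0 and hpo (-0.78) has one below 0, while the other intervals include 0.

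Counted together, 1 of the 9 genes rose (yki) and 8 did not pass, where 0.025% of all named genes passed. An unadjusted limma p under 0.05 was reached by 3 of the 9 (yki, kibra and hpo), against 15.3% of all named genes, 7.19% higher and 8.07% lower. No overlap between the groups was seen for 6 of the 9, with yki and kibra higher and hpo, sav, ex and jub lower. Over all named genes 47.7% did not overlap, 22.5% higher and 25.2% lower. These counts include yki, which was overexpressed by design. Without yki, 0 of 8 passed the test, 2 of 8 had an unadjusted limma p under 0.05 and 5 of 8 did not overlap. The median difference of the 8 was -0.21, beside -0.01 over all named genes. In size, 11.2% of named genes had a larger difference than kibra, 16.2% than hpo and 20.4% than jub, while 41.8% to 78.1% had a larger one than each of wts, ex, mats, sav and Mer.

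**Figure D3:**
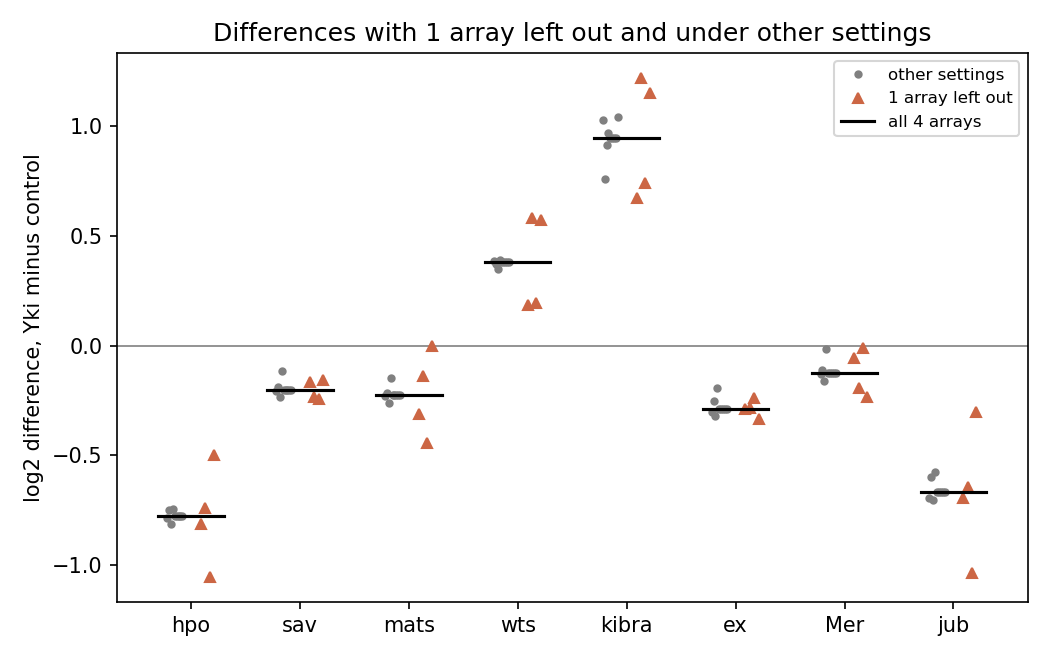
Log2 difference (Yki minus control) of 8 genes other than yki with all 4 arrays (bar), with 1 array left out in turn (triangles) and under 9 other settings (dots). Leaving out an array moves hpo between -1.06 and -0.50, jub between -1.04 and -0.30 and kibra between 0.67 and 1.22. No sign changes for any of the 8 genes. With 1 array left out, this follows for hpo, sav, kibra, ex and jub from their groups not overlapping.

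A wider list of 50 other genes that act on or with the pathway held 45 that were measured. None passed the test, 3 had an unadjusted limma p under 0.05 (1 higher and 2 lower) and 20 did not overlap between the groups, 8 higher and 12 lower. These 20 of 45 stand beside 47.7% of all named genes without overlap, and the values that follow describe single genes only. The median difference was 0.03, and it ran from -0.16 without control replicate 1 to 0.20 without control replicate 2. The gene with the largest difference of the list was tsh, a zinc-finger gene of eye progenitors whose protein binds Yorkie, with 657 and 719 in control discs and 229 and 238 in Yki discs. Both groups were tight and lay far apart (difference -1.50, SE 0.22, adjusted p 0.141). fj, the Golgi kinase of the Fat and Dachsous cadherins, measured 1111 and 1066 against 635 and 692 (difference -0.70). Other genes lower without overlap were app, a palmitoyltransferase gene (-0.52), the kinase gene Sik3 (-0.50), Dlish, an SH3-domain partner of Dachs (-0.35), and Slmap, of the phosphatase complex that acts on Hippo (-0.26). app had a second, dim probe set with a difference of 0.38, in the opposite direction, and the second probe set of Sik3 was below 5 on every array. Sik3 was at -0.30 without control replicate 2, Dlish at -0.23 without control replicate 1 and Slmap at -0.15 without Yki replicate 1.

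On the higher side of that list, Wbp2 had the largest difference. Wbp2 binds the WW domains of Yorkie. It measured 1002 and 1631 in control discs and 2073 and 3269 in Yki discs, so that the groups did not overlap but both were wide (difference 1.02, SE 0.37, adjusted p 0.357). The spectrin genes beta-Spec (0.57) and kst (0.45) were higher without overlap as well, as were lft, whose protein binds Fat and Dachsous (0.56), 14-3-3zeta, whose protein holds phosphorylated Yorkie in the cytoplasm (0.48), and Fbxl7, an F-box gene downstream of Fat (0.44). Several of these values turned on 1 array. Wbp2 was at 0.67 without control replicate 1, beta-Spec at 0.33 and kst at 0.06 without Yki replicate 1, and lft at 0.37 without Yki replicate 2. None of these passed the test.

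Of 23 genes known in other settings as Yorkie targets, 14 were measured, among them kibra, ex and Mer, and fj and crb of the list above. Diap1, Myc, E2f1, dally, wg, Ser, vn, upd3 and Socs36E were not analysed here, so the values below do not cover them. None passed the test, 6 had an unadjusted limma p under 0.05 (2 higher and 4 lower) and 10 did not overlap, 4 higher and 6 lower. Over all named genes these shares were 15.3% and 47.7%. The 14 had a median difference of -0.27, which was -0.17 without control replicate 1 and -0.34 without Yki replicate 1. vg, the wing selector gene, read 116 and 147 in control discs and 27.8 and 36.4 in Yki discs (difference -1.61, adjusted p 0.143). A dimmer probe set of vg had a difference of -1.38 (SE 0.66, adjusted p 0.462). That probe set read 12.4 and 96.1 in control discs against 4.74 and 6.74 in Yki discs. Its difference thus rested largely on control replicate 2, and its other values were near the bottom of the scale. CycB, a mitotic cyclin gene, measured 1372 and 1272 against 496 and 469.8 (difference -1.42, adjusted p 0.143). The S phase cyclin gene CycE had a difference of -0.92, which was -0.40 without control replicate 2, and upd1, a ligand gene of JAK/STAT signalling, one of -0.97, which was -0.61 without that same array. fj and ex, given above, complete the 6 that were lower without overlap.

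Ilp8, the gene of an insulin- and relaxin-like peptide, was near the bottom of the scale in control discs, at 17.4 and 6.34, and read 144 and 48.0 in Yki discs. It had the largest positive difference of the target list (1.89, SE 0.50, adjusted p 0.268), understated by the pseudocount, and the difference was 1.23 without Yki replicate 1. crb, an apical determinant that regulates Expanded measured 1419 and 1914 against 2159.6 and 2183 (0.39, and 0.18 without control replicate 1). Krn, a ligand gene of the EGF receptor, had a difference of 0.12 with groups that barely separated (0.06 without Yki replicate 1). The measured targets thus lay on both sides of 0, with kibra and Ilp8 at one end and vg and CycB at the other.

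**Figure D4:**
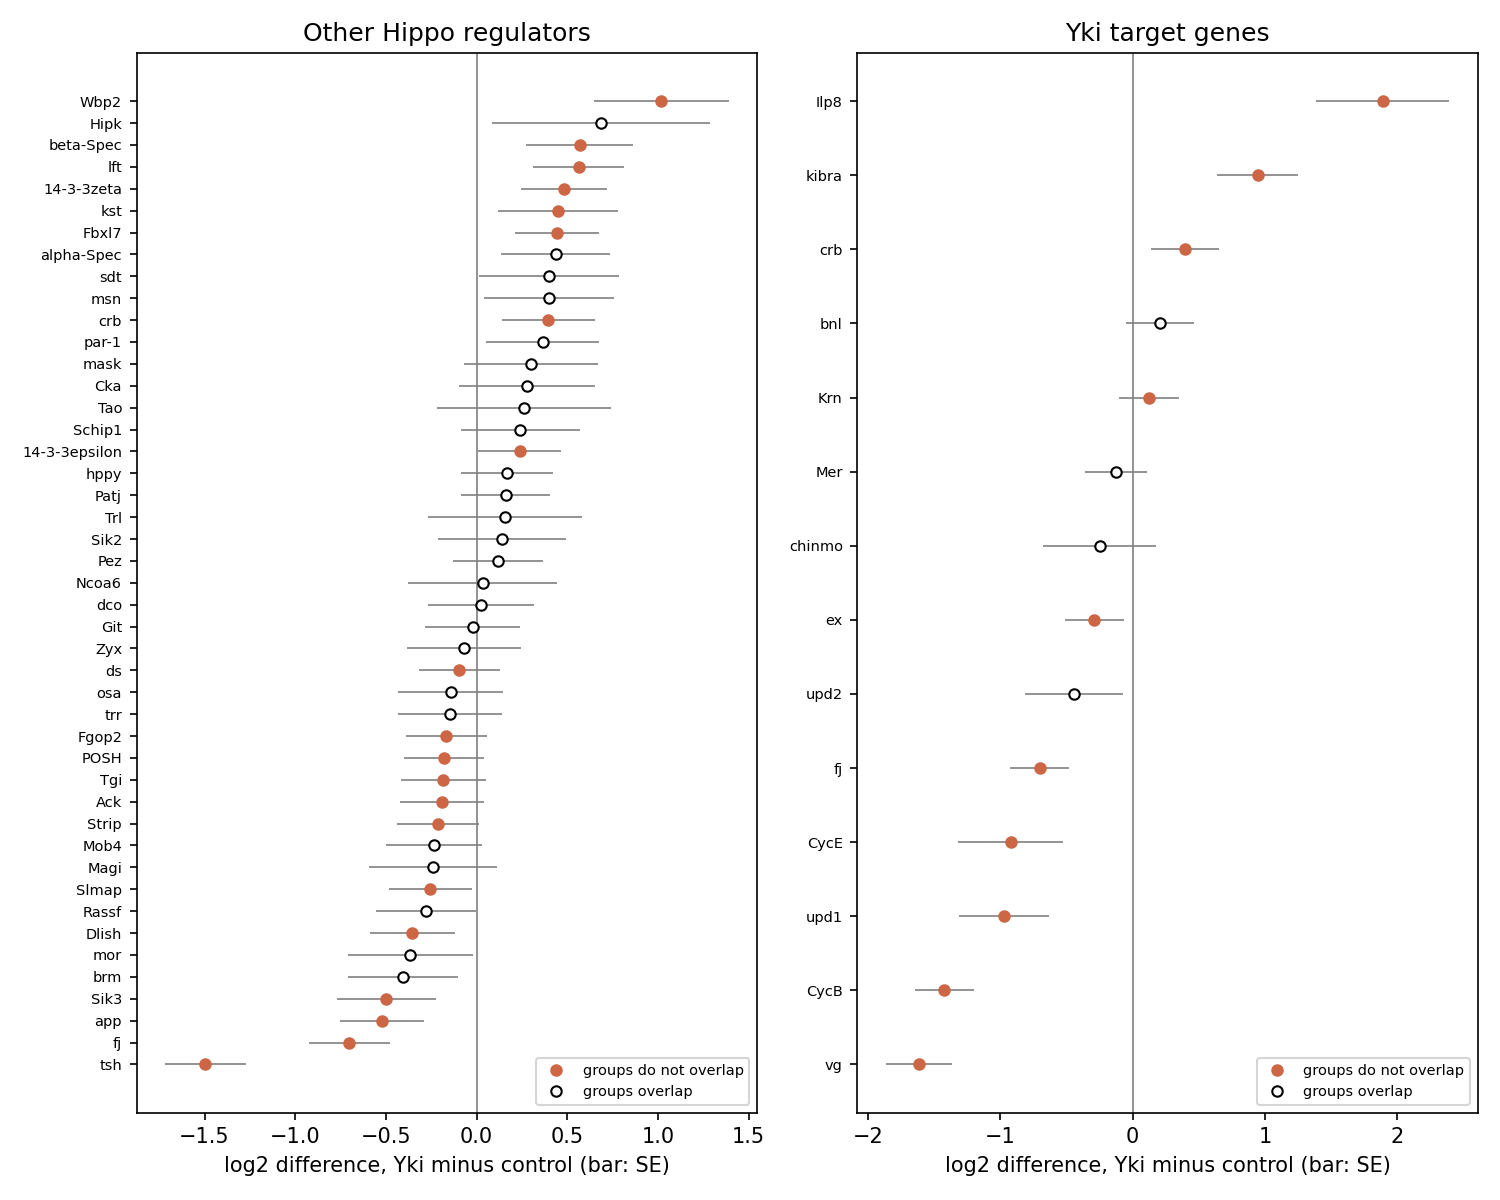
Log2 difference (Yki minus control) with its SE for 45 other Hippo regulators (left) and 14 Yki target genes (right), filled where the groups do not overlap and open where they do. The regulators centre near 0 (median 0.03), with tsh at -1.50 and Wbp2 at 1.02, while the targets run from vg at -1.61 to Ilp8 at 1.89.

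The pattern of yki over the arrays had no close match by the distance used here. Likeness was measured as the Euclidean distance between log2 values, each gene centred on its mean over the 4 arrays. The values were not scaled, so the distance depends on the size of a gene's difference as well as on its shape. The nearest of the named genes was pkm at a distance of 0.889, with 1299.5 and 595 in control discs and 12760 and 18304 in Yki discs. GstD7, a glutathione S-transferase gene, followed at 0.995, CG13059 at 1.11, CG40485 at 1.25 and CG9192 at 1.27. The probe sets used for these had differences of 3.13 to 4.71, a second probe set of CG40485 one of 2.14, and each of the 5 genes had a wider spread between Yki arrays than yki, whose Yki arrays agreed to within 1.01-fold. None passed the test over all probe sets (adjusted p 0.0695 to 0.117). For kibra, with its smaller difference, 58 named genes lay within a distance of 0.3, against 0 for yki. Few named genes had a difference as large as that of yki, so these counts do not compare the shapes of the 2 patterns. The nearest were nAChRbeta1, a subunit gene of the nicotinic acetylcholine receptor (0.0845), beat-IIb (0.0927) and Csas, a gene of sialic acid activation (0.107). With 4 arrays a pattern of this kind is shared by many genes, and the distances are a description only.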

How the data were processed

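Each of 4 Affymetrix arrays held 1 sample, and groups and replicate numbers came from the sample titles. The deposited table gives each of 18952 probe sets a linear intensity per array, made by the authors with Affymetrix Expression Console per the submitters' processing notes. How probes were summarised, and any detection call, is not given in the sources used here. The mean after trimming 2% at each end was 500.01 on every array, so the authors had scaled the arrays. All columns were used (0 left out).

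Names came from the platform annotation and from a RefSeq gene table (Release 6 plus ISO1 MT), which changed no symbol (0). 13647 had 1 symbol, 402 several and 4720 are unnamed here, beside 183 control probe sets. A gene with several 1-symbol probe sets was represented by the one of highest mean over the arrays. No sequence or coordinate is given.

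limma 3.58.1 in R 4.3.3 was fitted to log2(intensity + 16) over 18769 non-control probe sets with the group as the only term (2 residual and 3.03 prior degrees of freedom), and Benjamini-Hochberg adjusted p-values under 0.05 over all of them were called. The script was tested on simulated data. The limma p-values and intervals rest on the spread between these arrays, of the probe set itself and, through the prior, of all probe sets. Genes with tight groups thus had SEs close together (yki 0.219, ex 0.221 and sav 0.221). The number of arrays limits the precision. Alternatives changed the pseudocount, scaling, dim filter (mean intensity of at least 100), moderation, adjustment, probe set rule and arrays, and added the replicate number as a block. Over probe sets, same-numbered arrays deviated together only at a correlation of 0.0389, a measure that leaves out a shift of a whole array. Median intensities did follow the replicate number. They were 79.4 (control) and 81.1 (Yki) for replicate 1, and 97.1 (control) and 101 (Yki) for replicate 2. No label ties same-numbered arrays, and a batch was not tested.

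The genes and lists were chosen with earlier results of these data known. Of the 2 wider lists, called genes or else up to 6 per direction without overlap were named by size, then the 5 genes nearest to yki and the 3 nearest to kibra, the next largest difference among the 10 genes, and the 2 brightest markers of each marker list.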

Additional observations from a re-analysis of the deposited data

How the results depend on the processing

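Over 13 other settings the 9 genes kept their direction in all 117 values, but much of this was fixed in advance. The dim filter, moderation, replicate block and adjustment left each difference as it was. Where the groups did not overlap, leaving out an array could not change the sign. Of the 9 genes none other than yki passed the test in any setting that kept all arrays. yki lost its call with a pseudocount of 1 (difference 4.37, adjusted p 0.232), which left 0 genes called and 1 at an unadjusted p under 0.05 in place of 3, and with any array left out (differences 4.34 to 4.37, 0 genes called, 1 to 3 at an unadjusted p under 0.05). Those fits leave 1 array in a group, which is assumed to vary like the others. With the replicate block yki had an adjusted p of 0.0341, 1 of the 9 genes was called as before and no call changed in either list, while calls over all probe sets went from 3 to 27. They were 0 with a pseudocount of 1 and without any 1 array, 12 with quantile normalization, with the mean of a gene's probe sets or with the adjustment over genes, 20 with trended and robust moderation and 81 with dim probe sets removed. With array medians subtracted 874 were called. They included 1 of the other Hippo regulators (tsh, adjusted p 0.00974) and 3 targets, vg (0.00386), CycB (0.0161) and Ilp8 (0.000643). In that setting the unadjusted limma p of the genes named here followed the size of the difference, whatever the spread between arrays. Ilp8 (1.85), at 144 and 48.0 on the Yki arrays, had 1.2e-05, and tsh (-1.53), whose groups were tight, had 0.000301. These calls thus do not weigh each gene's own spread, and the cause was not tested. The probe sets that stood for the 9 genes were brighter than at least 52.7% of all probe sets on every array (40.1% for the second one of kibra), while Ilp8, vg and upd1 were each dimmer than that on at least 1 array.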
